A study of Homo sapiens with 6 samples.

Results

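The genes described here carry glucose into the cell, break it down to pyruvate and lactate, hold pyruvate back from use in the mitochondrion, or build glycogen. They came from a list of 36 gene symbols, of which 35 had a usable entry among the 26748 genes measured, and SLC16A1 was not analysed here. RNA was sequenced from M14, an established human melanoma cell line, in a single design with culture form as the only difference named. The 3D libraries (n = 3) came from non-adherent melanospheres, which are floating multicellular spheres, and the 2D libraries (n = 3) came from conventional adherent culture. The stated purpose was to characterise putative cancer stem cells in the spheres. Both cultures are the same line with no drug, genotype or transgene named, and the labels do not say whether replicates are independent cultures. A p-value here therefore weighs differences against the scatter of these libraries, and that scatter may be only technical.

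Glycolysis splits glucose into pyruvate in the cytosol, and most of its steps can be run by several isozymes, which are enzymes from different genes that catalyse the same reaction. Lactate dehydrogenase turns pyruvate into lactate, while the pyruvate dehydrogenase kinases switch off the complex that uses pyruvate inside the mitochondrion. Tumour cells are known for running glycolysis to lactate even with oxygen present, and many of these genes are textbook targets of the hypoxia-inducible factors (HIF). Glycogen is the branched glucose store made from glucose phosphate by phosphoglucomutase, UGP2, glycogen synthase and the branching enzyme.

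Values are normalised counts, that is, reads per gene divided by a size factor of each library. Depth ran from 16567763 to 19954987 reads per library. In each culture a library stood apart from the other pair. Across genes, log2 values of 2D replicate 3 correlated at 0.943 to 0.945 with the other 2D libraries, which correlated at 0.984 with each other. The values of 3D replicate 2 correlated at 0.966 to 0.967 with the other 3D libraries, which correlated at 0.987. Several defining pigment cell markers were near 0: SOX10 reached at most 37.0, MLANA 17.5, S100B 13.4 and TYR 33.9 in any library, each in 2D replicate 3. DCT, a pigment enzyme gene, had 1.86, 0 and 0 in 3D and 53.4, 38.4 and 118 in 2D, and S100A1 averaged 76.8 ± 7.46 in 3D and 17.9 ± 13.2 in 2D. The melanocyte regulator MITF averaged 288 ± 19.0 in 3D and 1131 ± 215 in 2D (SD, n = 3 each), and the pigment protein gene PMEL ran from 620 to 1377 in 3D and from 227 to 753 in 2D. In bulk RNA, fewer cells of a type and less RNA per cell cannot be told apart.

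In 3D spheres, 7 of the 35 genes rose and 0 fell (limma on log2 of the normalised count plus 1, adjusted p under 0.05 by Benjamini-Hochberg over 15598 genes). The 7 were HK1, PFKFB4, ALDOA, ALDOC, PGK1, ENO3 and PDK4. Over all genes tested the same rule called 12.5% higher and 11.6% lower in 3D, so 7 of 35 is a share above that background and 0 of 35 below it. At an unadjusted p under 0.05, limma had 13 genes higher and 2 lower, the 2 being GYS1 and SLC2A3. The edgeR quasi-likelihood test on the recovered reads called 6 higher and 0 lower, against 12.5% and 11.0% of all genes. DESeq2 called 8 higher and 1 lower, against 15.5% and 14.9%.

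The direction was broader than the calls. The log2 difference, 3D minus 2D, was positive in 31 of 35 genes (88.6%), against 48.8% of all genes tested, and its median was 0.48, against -0.02. With libraries scaled to equal totals, the medians were 0.61 for the 35 genes and 0.11 for all genes. All 3D libraries lay above all 2D libraries in 10 of the 35 genes, against 20.5% of all genes, and below them in 2, against 22.6%. The exceptions with a negative difference were SLC2A1, SLC2A3, PFKFB2 and GYS1.

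**Figure D1:**
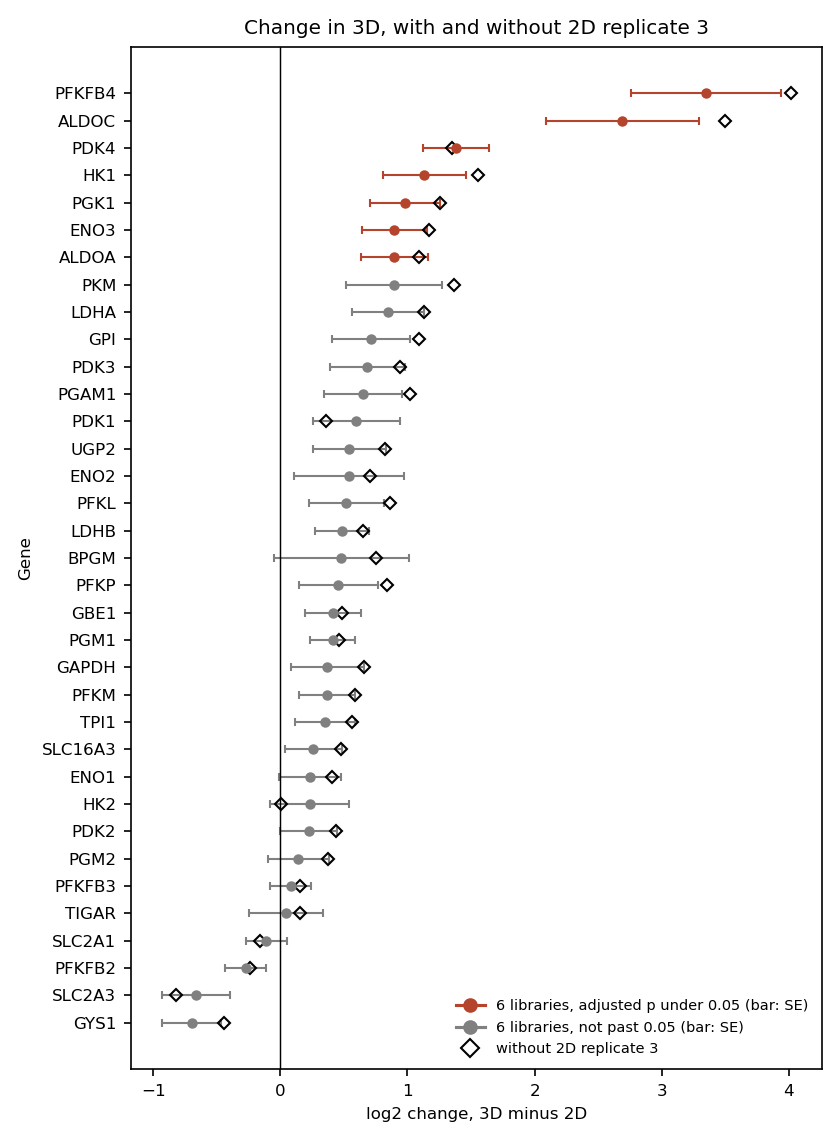
Log2 difference in normalised count plus 1, 3D minus 2D (horizontal axis), for each of the 35 genes (vertical axis), ordered by its size. Circles are the fit with 6 libraries, red where the adjusted p was under 0.05 and grey otherwise, bars are standard errors, and open diamonds are the fit without 2D replicate 3. The circles lie right of 0 for 31 genes, with PFKFB4 (3.35) and ALDOC (2.69) farthest right.

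The 35 genes also took a larger part of each sphere library. They held 1.73%, 1.64% and 1.69% of reads in 3D replicates 1, 2 and 3, against 0.935%, 0.823% and 1.52% in 2D replicates 1, 2 and 3. The groups did not overlap, but 2D replicate 3 lay close to the spheres and far from the other adherent pair. The means were 1.69 ± 0.0437% in 3D and 1.09 ± 0.376% in 2D (SD, n = 3 each). GAPDH, ENO1, PKM and LDHA each held 0.196% to 0.255% of reads in 3D and 0.0714% to 0.252% in 2D. These genes weigh most in the sum, and none of them passed the limma test with all libraries.

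**Figure D2:**
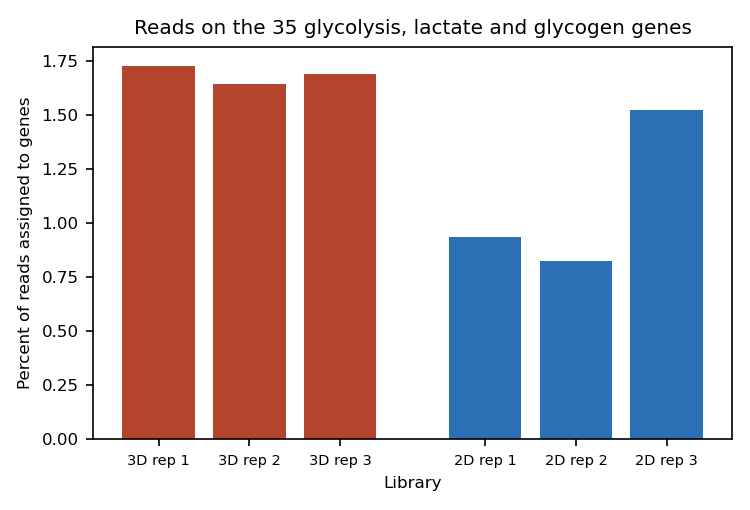
Percent of the reads assigned to genes that fell on the 35 genes (vertical axis), 1 bar per library, 3D in red and 2D in blue. The 3D libraries sit between 1.64% and 1.73%, while 2D replicate 3 sits at 1.52%, above the other 2D libraries.

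That library decides much of the count. For 27 of the 35 genes (77.1%), 2D replicate 3 was nearer to the 3D mean than to the mean of the other 2D libraries, against 52.4% of all genes. It was the highest of the 2D libraries in 28 of the 35 genes (80%), against 42.6% of all genes. Without it, 20 of the 35 genes were called higher and 2 lower, against 22.6% and 23.0% of all genes. Leaving out any other library gave fewer calls. Without 2D replicate 1, 2 genes were called higher, against 5.32% of all genes, and 2 likewise when 2D replicate 2 was dropped (6.57%). Dropping 3D replicate 1 gave 1 gene (3.90%), dropping 3D replicate 2 gave 6 (10.1%) and dropping 3D replicate 3 gave 1 (3.42%). With 3D replicate 2 dropped, ENO2 and GBE1 were gained while HK1, PGK1 and ENO3 were lost. PFKFB4 was the gene called in each of these fits, and none of these 5 called a gene lower. The part of 2D replicate 3's position in any single result was not tested beyond the values given without it.

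**Figure D3:**
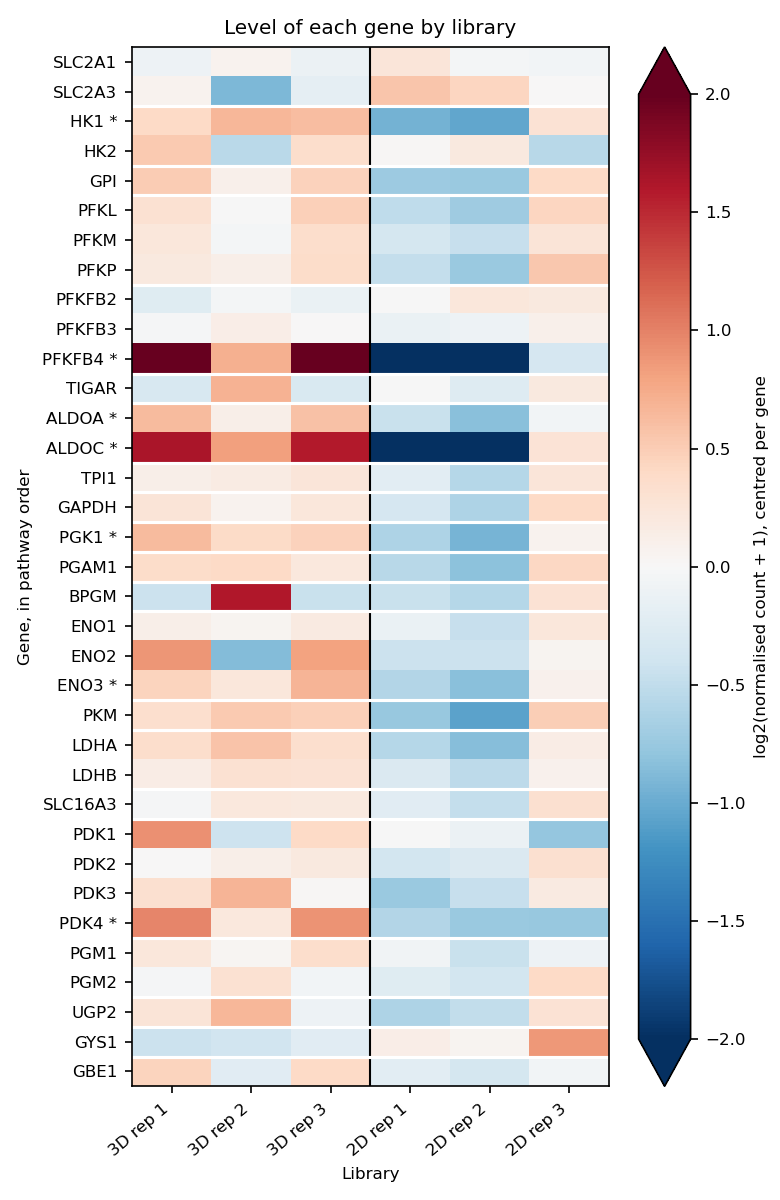
Log2 of the normalised count plus 1, centred on each gene's mean over the 6 libraries (colour, capped at 2 either way), for the 35 genes in pathway order (vertical axis) and the 6 libraries (horizontal axis), with asterisks on the 7 genes past the threshold. Most genes are high in the 3D libraries and low in 2D replicates 1 and 2, with 2D replicate 3 between them or near 3D.

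The steepest difference was in PFKFB4, and the sequences at the starts of 5 genes are given first. PFKFB4, ALDOC and PGK1 are shown as known HIF targets picked because they rose. PDK4 is shown as the gene that rose with none of the motif, and GYS1 as the gene with the most negative difference. Other known HIF targets did not pass. Among them were PDK1 (log2 0.60, limma adjusted p = 0.22), SLC2A1 (-0.11, adjusted p = 0.65) and HK2 (0.23, adjusted p = 0.61). PFKFB3 (0.08, adjusted p = 0.74) and LDHA (0.85, adjusted p = 0.058) were also among them. HIF targets as a set were not tested. The windows are RefSeq's (GRCh38.p14), from 250 bases before to 50 after each gene's start, and run 5′ to 3′ on the gene's own strand. Capitals mark each ACGTG or GCGTG, the core letters HIF binds, found on either strand, and a CACGTG holds the core on both strands and counts as 2 that overlap. PFKFB4 lies at chr3:48556754-48557053 (minus strand), ALDOC at chr17:28576846-28577145 (minus), PGK1 at chrX:78103998-78104297 (plus), PDK4 at chr7:95596467-95596766 (minus) and GYS1 at chr19:48993260-48993559 (minus).
PFKFB4: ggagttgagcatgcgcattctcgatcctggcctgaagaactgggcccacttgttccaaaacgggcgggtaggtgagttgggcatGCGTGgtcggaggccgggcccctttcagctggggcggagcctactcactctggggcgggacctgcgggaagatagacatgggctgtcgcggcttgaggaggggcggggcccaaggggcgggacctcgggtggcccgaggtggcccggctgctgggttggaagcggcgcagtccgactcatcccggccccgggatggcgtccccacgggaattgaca
ALDOC: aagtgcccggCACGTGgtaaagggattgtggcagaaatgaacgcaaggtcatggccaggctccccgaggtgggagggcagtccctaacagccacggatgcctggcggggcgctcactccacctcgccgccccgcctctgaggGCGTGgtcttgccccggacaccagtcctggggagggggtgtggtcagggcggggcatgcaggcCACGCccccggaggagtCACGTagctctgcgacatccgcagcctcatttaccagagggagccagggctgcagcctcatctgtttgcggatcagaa
PGK1: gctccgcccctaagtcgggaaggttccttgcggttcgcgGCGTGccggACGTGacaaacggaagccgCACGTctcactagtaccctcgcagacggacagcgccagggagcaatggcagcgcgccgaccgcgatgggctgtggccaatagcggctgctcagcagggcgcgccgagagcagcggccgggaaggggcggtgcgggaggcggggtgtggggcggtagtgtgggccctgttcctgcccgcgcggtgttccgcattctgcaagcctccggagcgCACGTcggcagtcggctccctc
PDK4: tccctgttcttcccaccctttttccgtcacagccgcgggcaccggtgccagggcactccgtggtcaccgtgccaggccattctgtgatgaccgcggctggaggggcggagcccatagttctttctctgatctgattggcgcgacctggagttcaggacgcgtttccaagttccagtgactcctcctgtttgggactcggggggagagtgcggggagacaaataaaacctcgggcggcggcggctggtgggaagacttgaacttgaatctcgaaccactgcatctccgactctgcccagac
GYS1: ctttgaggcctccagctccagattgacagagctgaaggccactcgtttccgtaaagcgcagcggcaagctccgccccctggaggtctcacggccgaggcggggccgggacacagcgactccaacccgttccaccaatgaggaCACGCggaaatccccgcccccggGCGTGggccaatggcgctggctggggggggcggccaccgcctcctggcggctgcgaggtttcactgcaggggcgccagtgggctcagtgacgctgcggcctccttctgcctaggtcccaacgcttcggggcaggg
The PFKFB4 window holds 1 core, ALDOC 5, PGK1 4, PDK4 0 and GYS1 2. A core is common: 17012 of 35116 windows in the table hold one (48.4%), and CACGTG is in 7.26%. Of the 65 windows of 33 matched genes, 42 hold a core (64.6%) and 8 hold CACGTG. Counted per gene over all its windows, 31 of the 33 matched genes hold a core in at least 1, and 6 of the 7 genes that rose do. A gene with more windows, such as HK1 or PFKM with 7 each, has more places to hold one. The share per gene over all genes was not computed, so these counts per gene have no background. SLC2A3 and PFKFB2 had no window. A match is a description of letters, and absence of a match says only that these letters are not in the window.

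At the entry of glucose, neither transporter passed the test. SLC2A1 (ENSG00000117394), which encodes the GLUT1 transporter, averaged 2231 ± 165 in 3D and 2413 ± 282 in 2D, a log2 difference of -0.11 (SE 0.16, limma adjusted p = 0.65). SLC2A3 (ENSG00000059804), the GLUT3 transporter of neurons and many tumours, had 2777, 1421 and 2336 in 3D and 3854, 3556 and 2659 in 2D. The groups overlapped, with 3D replicate 2 lowest. The log2 difference was -0.66 (SE 0.27, limma adjusted p = 0.10), and it was -0.82 with an adjusted p of 0.031 without 2D replicate 3, a call other single-library omissions did not give (adjusted p 0.096 to 0.28). Per kb of exon, the summed level of both genes was 0.35 lower in 3D on the log2 scale (exact permutation p = 0.20).

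Hexokinase traps glucose in the cell as glucose phosphate. HK1 (ENSG00000156515, chr10:69269984-69401884, plus strand), the hexokinase of most tissues, had 2541, 3053 and 2949 in 3D, against 998, 932 and 2335 in 2D. Every 3D library was above every 2D library, and 2D replicate 3 was nearest to 3D. HK1 rose by 1.13 on the log2 scale (SE 0.33, limma adjusted p = 0.038). It passed without 2D replicate 3 (1.56, adjusted p = 0.00012) but not with any other library left out (0.89 to 1.21, adjusted p 0.091 to 0.13), nor by edgeR (adjusted p = 0.053). HK2, the form induced in many tumours, was 2652 ± 928 in 3D and 2205 ± 562 in 2D and did not pass (0.23, SE 0.31, limma adjusted p = 0.61). The share of HK2 in the hexokinase level per kb was 57.9%, 35.3% and 51.2% in 3D, against 71.1%, 74.8% and 41.3% in 2D, with overlap (exact permutation p = 0.30).

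None of GPI, the isomerase, or the 3 phosphofructokinases, which commit sugar to glycolysis, passed the test. GPI averaged 7629 ± 1127 in 3D and 4959 ± 2421 in 2D (log2 0.71, SE 0.31, limma adjusted p = 0.12). PFKP, the platelet form and highest per kb of the phosphofructokinases, averaged 3903 ± 357 in 3D and 3068 ± 1550 in 2D (0.46, SE 0.31, adjusted p = 0.30). PFKL and PFKM had differences of 0.52 and 0.37. Without 2D replicate 3 all 4 genes were called higher. PFKP held 43.8 ± 2.05% of the phosphofructokinase level per kb in 3D and 43.5 ± 3.26% in 2D, less apart than the spread between libraries. PFKL held 28.7 ± 1.46% in 3D and 27.2 ± 0.598% in 2D with overlap (exact permutation p = 0.20), and without 3D replicate 2 its share was 2.29 percentage points higher in 3D (exact permutation p = 0.10).

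PFKFB enzymes make and remove the small sugar phosphate that activates phosphofructokinase. PFKFB4 (ENSG00000114268, chr3:48517684-48562015, minus strand) had 1207, 428 and 1138 in 3D, against 48.6, 53.4 and 207 in 2D. The groups did not overlap, though 3D replicate 2 and 2D replicate 3 lay nearest each other. It rose by 3.35 on the log2 scale (SE 0.59, limma adjusted p = 0.0070) and stayed called with any 1 library left out, between 2.98 and 4.01 (adjusted p at most 0.040). The other forms did not follow: PFKFB2 averaged 979 ± 69.4 in 3D and 1183 ± 100.4 in 2D (-0.27, SE 0.16, adjusted p = 0.24), and PFKFB3, a form induced in many tumours, had 828 ± 50.2 in 3D and 784 ± 72.3 in 2D (0.08, SE 0.16, adjusted p = 0.74).

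The PFKFB mixture shifted with PFKFB4. Its share of the PFKFB level per kb was 47.5%, 22.1% and 45.0% in 3D, against 3.42%, 3.44% and 11.4% in 2D. PFKFB2 held 25.6 ± 5.84% in 3D and 44.7 ± 3.80% in 2D. PFKFB3 held 36.2 ± 8.17% in 3D and 49.2 ± 2.07% in 2D. None of these 3 shares overlapped between cultures, and each had the exact two-sided permutation p of 0.10, the smallest that 20 assignments allow. TIGAR, a phosphatase that lowers the PFKFB product, had 754 ± 328 in 3D and 696 ± 107 in 2D, and BPGM, which diverts a glycolytic intermediate, had 492 ± 434 in 3D and 288 ± 100.1 in 2D. Single libraries set both means: TIGAR reached 1132 and BPGM 994 in 3D replicate 2, against at most 570 and 242 in the other 3D libraries. Without that library the log2 differences were -0.29 for TIGAR and -0.20 for BPGM. Neither passed with all libraries (limma adjusted p = 0.92 and 0.53), and 45.6% of TIGAR's exon bases lie in another gene, so its value is uncertain.

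**Figure D4:**
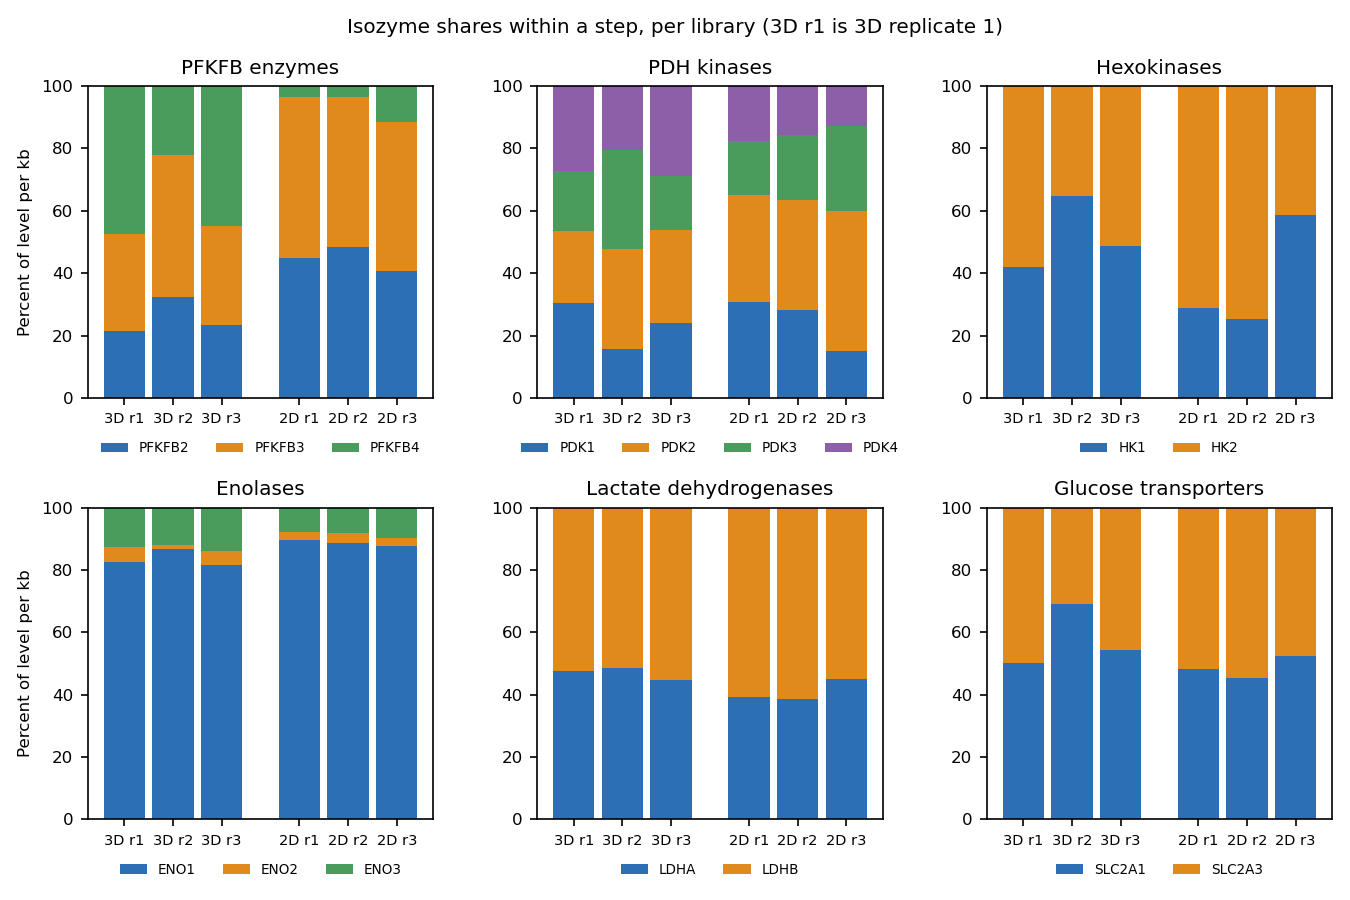
Share of each isozyme in the summed level per kb of its step (vertical axis, percent) for 6 steps, 1 stacked bar per library (horizontal axis). PFKFB4 holds 22.1% to 47.5% in 3D and 3.42% to 11.4% in 2D, and the shares of PDK4 and ENO3 are also larger in every 3D library than in any 2D library.

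Aldolase splits the sugar into triose phosphates. ALDOC (ENSG00000109107, chr17:28573115-28577264, minus strand), the brain-type aldolase, had 3737, 2127 and 3625 in 3D, against 295, 247 and 1461 in 2D. It did not overlap, with 2D replicate 3 nearest to 3D. ALDOC rose by 2.69 (SE 0.60, limma adjusted p = 0.016). The call was lost when 2D replicate 1 (log2 2.35, adjusted p = 0.061) or 2D replicate 2 (2.22, adjusted p = 0.051) was left out. It was also lost on leaving out 3D replicate 1 (2.55, adjusted p = 0.062) or 3D replicate 3 (2.57, adjusted p = 0.071), and it held for the remaining pair of omissions.

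ALDOA (ENSG00000149925, chr16:30064164-30070457, plus strand), the muscle-type form and usually the main aldolase, had 429, 297 and 415 in 3D, against 201, 154 and 263 in 2D. All 3D values were higher. It rose by 0.90 (SE 0.26, limma adjusted p = 0.041), and the adjusted p was 0.12 to 0.15 when any of 2D replicates 1 and 2 or 3D replicates 1 and 3 was left out (log2 0.70 to 0.90). ALDOA is uncertain, since 53.5% of its exon bases lie in other genes. The largest overlap, 42.3% on the same strand, is with AC093512.2, a gene that had 49.4 to 100.2 in 3D and 72.0 to 96.1 in 2D. What counting across that overlap did to ALDOA was not tested. ALDOC's share of the aldolase level per kb, 92.1%, 90.6% and 92.1% in 3D against 66.3%, 68.2% and 88.1% in 2D, carries the same uncertainty.

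The 6 steps from triose phosphate to pyruvate hold the most abundant of these transcripts. GAPDH had the highest level per kb, 13423 in 3D and 10847 in 2D, followed by ENO1 at 7367 in 3D and 6374 in 2D. TPI1 (0.35), GAPDH (0.37), PGAM1 (0.65) and ENO1 (0.23) did not pass, with limma adjusted p between 0.15 and 0.50, and for each of them 2D replicate 3 was at or above the lowest 3D library. PGAM1 is uncertain, since 28.0% of its 75-base windows also occur in another gene. All 8 members of these steps had a positive difference and 2 passed, PGK1 and ENO3.

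PGK1 (ENSG00000102144, chrX:77910739-78129296, plus strand), the first ATP-making enzyme of the pathway, had 30797, 25917 and 27314 in 3D, against 13005, 10467 and 20938 in 2D. The 3D values were all higher. PGK1 rose by 0.98 (SE 0.27, limma adjusted p = 0.035). ENO3 (ENSG00000108515, chr17:4948092-4957131, plus strand), the muscle enolase, had 4841, 4132 and 5689 in 3D, against 2353, 1981 and 3772 in 2D, again with no overlap. ENO3 rose by 0.90 (SE 0.25, limma adjusted p = 0.036). Of single-library omissions, the one of 2D replicate 3 kept both calls, while the adjusted p was 0.069 to 0.12 for PGK1 (log2 0.76 to 1.03) and 0.053 to 0.14 for ENO3 (0.70 to 1.01) without any other library.

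ENO3 held 12.6%, 11.9% and 14.02% of the enolase level per kb in 3D, against 7.92%, 8.26% and 9.67% in 2D, and ENO1 held 82.5%, 86.5% and 81.7% in 3D, against 89.6%, 88.6% and 87.7% in 2D. Neither overlapped (exact permutation p = 0.10). ENO2, the neuronal form, had 547 in 3D replicate 2 and at least 1753 in the other 3D libraries, and averaged 1382 ± 725 in 3D and 842 ± 170.3 in 2D and did not pass (0.54, SE 0.43, adjusted p = 0.38), but without 3D replicate 2 it was called (1.11, adjusted p = 0.017).

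PKM, pyruvate kinase, had 34340, 39250 and 37727 in 3D and 16027, 12892 and 38401 in 2D. The first 2D pair was low and 2D replicate 3 lay within 3D. The log2 difference of 0.89 (SE 0.38) did not pass (limma adjusted p = 0.12), and without 2D replicate 3 it was 1.37 (adjusted p = 0.00048).

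**Figure D5:**
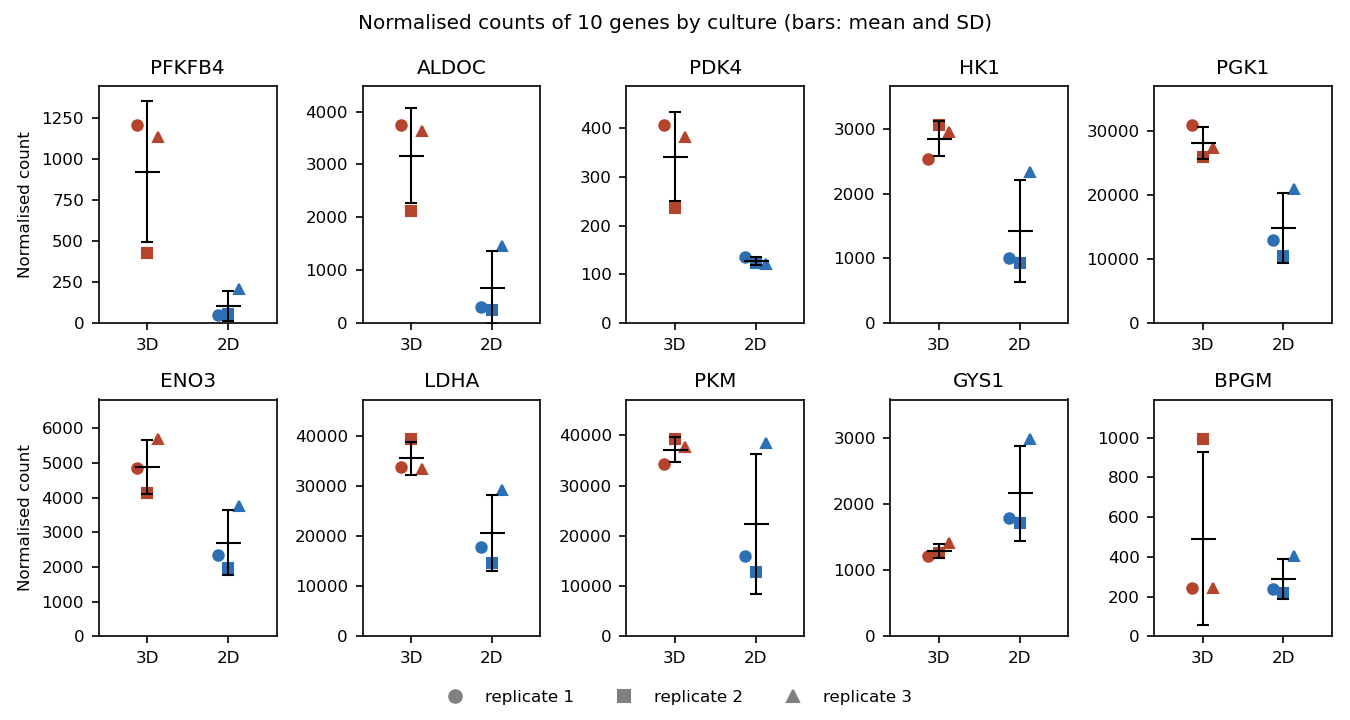
Normalised counts (vertical axis, linear from 0) of 10 genes in 3D and 2D, with 1 point per library, its shape giving the replicate, and bars for the mean and SD (n = 3 each); the lower bar of ALDOC in 2D runs past 0. In PFKFB4, ALDOC and PDK4 all 3D points lie above all 2D points, in GYS1 all lie below, and in PKM 2D replicate 3 lies among the 3D points.

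LDHA, the lactate dehydrogenase form that favours lactate, had 33923, 39472 and 33490 in 3D, against 17931, 14713 and 29225 in 2D. No values overlapped. The log2 difference of 0.85 (SE 0.28) missed the threshold (limma adjusted p = 0.058), and it passed in DESeq2 (adjusted p = 0.018), with equal library totals (adjusted p = 0.036) and without 2D replicate 3 (1.13, adjusted p = 0.0013). LDHB, the heart form, averaged 19279 ± 1070 in 3D and 13948 ± 2992 in 2D (0.49, SE 0.21, adjusted p = 0.12), also without overlap, and is uncertain because 33.4% of its exon bases lie in another gene. The lactate exporter SLC16A3 averaged 5629 ± 488 in 3D and 4824 ± 1402 in 2D and did not pass (0.26, SE 0.22, adjusted p = 0.42). The summed level of the LDH genes per kb was 0.64 higher in 3D on the log2 scale and did not overlap (exact permutation p = 0.10).

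PDK4 (ENSG00000004799, chr7:95583499-95596491, minus strand), the pyruvate dehydrogenase kinase known for its rise on fasting, had 405, 237 and 382 in 3D, against 136, 123 and 121 in 2D. All 3D libraries were higher, and the 2D libraries were close together. It rose by 1.38 (SE 0.26, limma adjusted p = 0.0087). With 3D replicate 1 left out the adjusted p was 0.052 (log2 1.24), with 3D replicate 3 left out it was 0.053 (1.28), and it stayed under the threshold in the other 4 omissions. PDK1, a HIF target, averaged 1043 ± 447 in 3D and 661 ± 172 in 2D (0.60, SE 0.34, adjusted p = 0.22), and PDK3 averaged 319.7 ± 74.3 in 3D and 203 ± 69.4 in 2D (0.68, SE 0.30, adjusted p = 0.12). PDK2 (0.22, adjusted p = 0.50) is uncertain, since 38.6% of its exon bases lie in SAMD14. PDK4 held 27.3%, 20.5% and 28.9% of the PDK level per kb in 3D, against 17.6%, 15.6% and 12.8% in 2D, with no overlap (exact permutation p = 0.10).

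Of the 5 glycogen genes none passed. GYS1 (ENSG00000104812), muscle glycogen synthase, had 1215, 1254 and 1407 in 3D, against 1793, 1711 and 2987 in 2D. Every 3D value was lower, and 2D replicate 3 stood above the other 2D libraries. The log2 difference was -0.70 (SE 0.23, limma adjusted p = 0.058), called lower by DESeq2 (adjusted p = 0.032) and without 2D replicate 3 (-0.44, adjusted p = 0.033). PGM1, which links glucose phosphates, averaged 1515 ± 169 in 3D and 1143 ± 156 in 2D without overlap (0.41, SE 0.18, adjusted p = 0.12). PGM2 (0.14), UGP2 (0.54) and the branching enzyme GBE1 (0.42) did not pass, with adjusted p from 0.19 to 0.69, and GBE1 was called without 3D replicate 2 (0.63, adjusted p = 0.049).

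In all, 27 shares and step sums were compared by the exact permutation test, 14 had the smallest possible p of 0.10, and the smallest Benjamini-Hochberg value was 0.19.

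Among 18 tested genes of a list that joins other isozymes of the same steps with gluconeogenic enzymes, 3 rose and 2 fell, where 12.5% and 11.6% of all genes did. The gluconeogenic enzyme gene PCK1 had 420, 166 and 321 in 3D and 2.86, 3.20 and 152 in 2D (log2 4.38, SE 1.25, limma adjusted p = 0.037), and its mitochondrial counterpart PCK2 had 10.2, 13.6 and 9.29 in 3D and 588, 446 and 18.5 in 2D (-3.86, SE 1.12, adjusted p = 0.038). In PCK1, 2D replicate 3 lay near the lowest 3D value, and in PCK2 it lay near 3D. Of single-library omissions, both calls held in the one of 2D replicate 3. LDHD and SLC2A13 also rose and SLC2A8 fell. None of the 18 genes was called when any of 2D replicates 1 and 2 or 3D replicates 1 and 3 was left out.

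The next list joins genes of glycogen handling with the phosphoglucomutase relatives PGM2L1, PGM3 and PGM5. Of its 23 tested genes 4 rose and 4 fell, again beside 12.5% and 11.6% of all genes. PGM2L1 averaged 491 ± 78.2 in 3D and 189 ± 73.3 in 2D (1.43, limma adjusted p = 0.012), and this call was lost without 3D replicate 1 (1.37, adjusted p = 0.057). PHKG2, a phosphorylase kinase subunit, averaged 703 ± 137 in 3D and 349 ± 83.5 in 2D (1.01, adjusted p = 0.018). PGM5 had 0, 0.969 and 1.03 in 3D and 33.4, 24.6 and 12.3 in 2D (adjusted p = 0.0053), and PGM3 averaged 458 ± 4.35 in 3D and 720 ± 45.5 in 2D (-0.65, adjusted p = 0.024). PGM5 was called in all 6 single-library omissions. The calls of PHKG2 and PGM3 were lost when any of 2D replicates 1 and 2 or 3D replicates 1 and 3 was left out, with a log2 difference of 0.86 to 1.07 (adjusted p 0.061 to 0.085) for PHKG2 and -0.65 to -0.62 (adjusted p 0.088 to 0.10) for PGM3. PYGM and GAA also rose and PHKA1 and GSK3A also fell, and these calls were likewise lost in each of those omissions. Single-library omissions gave 0 to 6 genes of this list higher and 1 to 7 lower, while 534 to 3526 of the 15598 genes were higher and 656 to 3585 lower. Of 10 genes of pyruvate dehydrogenase and pyruvate import 1 rose, the phosphatase PDP1, where 12.5% of all genes did. Of 11 pentose phosphate genes 1 fell, RBKS, where 11.6% of all genes did. Both were called without 2D replicate 3 and with no other single library left out.

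Of 21 tested regulators of glycolysis 3 rose and 5 fell, where 12.5% and 11.6% of all genes did. EPAS1, which encodes HIF-2 alpha, had 2965, 3841 and 3365 in 3D, against 19955, 22301 and 13608 in 2D, and fell by 2.43 on the log2 scale (SE 0.23, limma adjusted p = 0.00058). HIF1A averaged 5192 ± 449 in 3D and 4790 ± 370 in 2D and did not pass (0.12, adjusted p = 0.63). EGLN3, an oxygen-sensing prolyl hydroxylase and HIF target, had 745, 542 and 722 in 3D, against 36.2, 39.5 and 143 in 2D, and rose by 3.47 (SE 0.48, adjusted p = 0.0028). EPAS1 and EGLN3 were called in all 6 single-library omissions. EGLN2 rose by 1.89 (adjusted p = 0.010) and its call was lost without 3D replicate 1 (1.82, adjusted p = 0.051) or 3D replicate 3 (1.69, adjusted p = 0.059). Over the omissions, 1 to 5 regulators were called higher and 2 to 8 lower, beside the counts over all genes given for the glycogen list.

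Markers of other cell types gave these levels. The summed fibroblast markers ran from 9263 to 12212 in 3D and from 2042 to 6547 in 2D, mostly from collagen genes COL1A1 and COL3A1. PDGFRB had 223, 981 and 246 in 3D and 61.9, 56.6 and 535.6 in 2D and did not pass (log2 1.60, SE 0.88, limma adjusted p = 0.21). COL3A1 rose, with 5705 ± 1924 in 3D and 900 ± 736 in 2D (log2 2.89, limma adjusted p = 0.0065). Leukocyte sums were 76.6 to 141 in 3D and 67.3 to 162 in 2D, endothelial sums 572 to 731 in 3D and 613 to 1032 in 2D, and epithelial sums, mostly KRT8 and KRT18, 33905 to 44968 in 3D and 25705 to 65916 in 2D. Of 5 tested melanocyte and melanoma markers 1 rose and 2 fell. Among the others 1 of 3 fibroblast genes rose, 1 of 2 leukocyte genes fell, 0 of 3 endothelial genes were called and 2 of 6 epithelial genes fell. Over all genes tested 12.5% rose and 11.6% fell, and lists this short cannot be told from those shares. The part of these markers' cell types in the differences above was not tested.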

How the data were processed

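Poly(A) RNA of M14 cells was sequenced, per the labels' protocols, from Illumina TruSeq RNA v2 libraries, which do not mark strand. The authors used HISAT2, featureCounts 1.5.0 and DESeq2 with GRCh38/hg38, per the submitters' processing notes. The HISAT2 version, the DESeq2 version and the annotation release were not given in the sources used here. Each deposited value is a signal, a read count that the authors divided by size factors. Whole reads were recovered for 100% of values within 0.01 of a read, and their range was 16567763 to 19954987 per library. Exact intervals on shares of reads cover counting error only.

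Genes with a mean of at least 10 were tested on log2(value + 1) with limma 3.58.1 (R 4.3.3), culture as the only term, Benjamini-Hochberg at 0.05. Fold changes on this scale understate low genes. edgeR 4.0.16 called 1944 genes higher and 1713 lower in 3D, and DESeq2 1.42.0 was also run. Shares and sums used normalised counts per kb of GENCODE 29 exon, with exact two-sided permutation over libraries. Genes with over 20% of 75-base windows or exon bases in another gene are called uncertain. Alternatives covered pseudocounts, filters, scalings, robust eBayes, the replicate block and leaving out libraries. Named were members past the threshold and the highest isozyme per step, plus up to 4 genes per neighbouring list by adjusted p; other genes were named after their values were seen. On simulated counts for 15598 genes with 200 changed, the workflow recovered 18% of log2 changes of 1 and 83% of 2. It also called 10 unchanged genes. Far fewer genes changed there than were called here (1950 higher and 1816 lower), so these rates may not hold for the data. The members and lists were chosen with earlier results of these data known.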

Additional observations from a re-analysis of the deposited data

How the results depend on the processing

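Pseudocounts, filters, scalings and robust eBayes kept the member counts within 1.5 times of 7 higher and 0 lower, with DESeq2 giving 1 lower. Leaving out single libraries gave 1 to 20 members higher and 0 to 2 lower, 534 to 3526 genes higher and 656 to 3585 lower over all genes (1950 and 1816 with every library), and 1 to 21 genes of the 5 neighbouring pathway lists higher and 3 to 22 lower (11 and 12). Leaving out both 2D replicate 3 and 3D replicate 2 gave 25 and 2 members, 4436 and 4605 genes, and 26 and 25 pathway genes; the cause was not tested. Same-numbered libraries did not deviate together (r of -0.08, -0.14 and 0.04). With 3 libraries in each culture and a library standing apart in each, these values cannot settle whether the numbers pair them. With the replicate block, 7 members were higher and 0 lower, 1748 and 1474 of all genes, and 7 pathway genes lower. Direction reversed for SLC2A1 with equal library totals (0.023). TIGAR reversed on omitting 2D replicate 2 (-0.07), 3D replicate 2 (-0.29) or both libraries that stood apart (-0.18), and single omissions spanned -0.29 to 0.22. BPGM reversed without 3D replicate 2 (-0.20 to 0.82) and PGM2 without 2D replicate 2 (-0.0070 to 0.38). Differences in isozyme share reversed for PFKP (-1.12 to 2.07 over single omissions), PDK1 (-6.11 to 2.62) and PDK3 (-3.57 to 3.56, and -0.902 without both). The cause was not tested. The other members, shares and step sums kept their direction in the omissions. Depth limits the lowest genes most.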
